A study of Mus musculus with 3 samples.

Results

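Expression of 10 NRF2-type antioxidant genes (Hmox1, Txnrd1, Txn1, Srxn1, Prdx1, Gclc, Gclm, Slc7a11, Nqo1 and Sod2) was measured by single-cell RNA sequencing in cells of mouse inguinal adipose tissue, the subcutaneous fat pad of the groin. The 10 genes were chosen by symbol, with earlier results of these data known, from the 31053 features of the count matrices. Each symbol matched 1 feature, and all 10 are accounted for. There were 3 libraries, 1 for each genotype: TERT +/+ (called wild-type), Pdgfra-Cre; TERT fl/fl (called Pdgfra-Cre) and, with the other driver, Pdgfrb-Cre; TERT fl/fl (called Pdgfrb-Cre), and values are listed in that order throughout. Cre removes the floxed alleles of Tert, the gene of telomerase reverse transcriptase, in cells that use, or descend from cells that used, the promoter of a platelet-derived growth factor receptor. Both receptors are known for mesenchymal cells, and whether alleles were also removed in endothelial cells, macrophages or lymphocytes was not measured. Each library holds stromal and vascular cells from which dead cells and red blood cells had been removed, captured with 10x 3' v3 chemistry. Neither the number of animals nor their age is given in the labels, the wild-type title carries an unexplained abbreviation (PBS), and no Cre-only or floxed-only library was analysed here.

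NRF2, encoded by Nfe2l2, is a transcription factor that KEAP1 holds in the cytoplasm and marks for degradation; oxidants and electrophiles modify KEAP1, and NRF2 then binds antioxidant response elements together with a small MAF protein. Its classical targets rebuild the cell's reducing capacity: thioredoxin and peroxiredoxin enzymes reduce oxidised proteins and peroxides, the cystine importer SLC7A11 and glutamate-cysteine ligase supply glutathione, and heme oxygenase 1 breaks down heme. BACH1 competes for the same elements and represses Hmox1, and several of these genes also answer to other factors, Slc7a11 to ATF4 and Sod2 to NF-kB among them. In adipose tissue Hmox1 is best known in macrophages, which recycle the iron of heme.

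The libraries held 13352288, 14438471 and 30826733 unique molecular identifiers (UMIs) in 4124, 2310 and 4355 barcodes, and shared at most 5 barcodes between any pair. With 1 library per genotype, genotype and library cannot be told apart, and no test between genotypes was made. Levels are in CPM, the UMIs of a gene scaled to a common total of UMIs, both summed over the cells of a lineage in a library, ratios are of such CPM, and brackets give exact 95% intervals that cover counting error alone. Lineages were called from marker genes. All genes of the stromal, blood endothelial, macrophage, T cell and B cell lists had UMIs in the matching cells of all 3 libraries. Full lists were also seen in other cells, so this is no check of identity. The 8 T cell markers, for example, were all seen in wild-type stromal cells, at 233 CPM against 4029 in wild-type T or NK cells. Stromal cells numbered 250, 620 and 569, endothelial cells 523, 123 and 195, macrophages 126, 105 and 179, and T or NK cells 653, 329 and 1739. B cells (614, 25 and 952) could be compared for Pdgfrb-Cre alone. Mesothelial cells numbered 0, 123 and 0, and 7 mesothelial markers summed to 10.3, 152 and 24.6 CPM in stromal cells. The Pdgfra-Cre library thus also differed in the cell types it held, and the part of this in its ratios was not tested. Depth moved with the libraries: median UMIs per cell were 1668, 9682 and 10496 in stromal cells, 1676, 3789 and 7962 in endothelial cells and 2238, 5101 and 9455 in macrophages, but 5299, 4930 and 6101 in T or NK cells. The deleted gene was close to undetected: Tert had 16, 7 and 10 UMIs over all barcodes and 3, 4 and 1 in stromal cells, and 3' reads need not lie in the floxed part, so they are no check of the deletion.

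RefSeq promoter windows on GRCm38.p6, from 250 bases before to 50 after a transcription start, were held for 8 of the 10 genes (not Hmox1 and Gclc) in 10 windows. The core of the antioxidant response element, TGACNNNGC on either strand, occurred in windows of 4 of the 8 genes and in 12.4% of 32851 mouse windows of the same length. The 4 matches are shown with 10 bases on each side, 5' to 3' on the gene's strand and with the match in capitals, because they are the letters that the pathway is named for; all 4 read as the core on the opposite strand.
Txnrd1, chr10:82859114-82859122, 92 bases before a start inside the gene: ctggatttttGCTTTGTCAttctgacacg
Srxn1, chr2:152105552-152105560, 28 bases after the start: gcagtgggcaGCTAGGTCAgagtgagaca
Prdx1, chr4:116685466-116685474, 133 bases before the start: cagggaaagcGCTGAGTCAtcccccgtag
Gclm, chr3:122245423-122245431, 134 bases before the start: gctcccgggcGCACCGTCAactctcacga
The AP-1 motif TGAGTCA, present in 5.20% of all windows, was found in 2 of the 8 genes, Srxn1 and Prdx1, and in Prdx1 one match overlaps the core shown. The 250 bases before the Txnrd1 start (chr10:82858956-82859205, plus strand) carry the core in capitals.
Txnrd1 promoter: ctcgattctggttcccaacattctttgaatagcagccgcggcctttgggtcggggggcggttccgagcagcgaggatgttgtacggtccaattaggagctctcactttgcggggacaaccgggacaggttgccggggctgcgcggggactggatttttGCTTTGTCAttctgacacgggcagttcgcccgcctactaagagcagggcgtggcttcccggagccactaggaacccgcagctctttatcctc
The 250 bases before the Srxn1 start (chr2:152105274-152105523, plus strand) carry a pair of TGAGTCA matches, in capitals.
Srxn1 promoter: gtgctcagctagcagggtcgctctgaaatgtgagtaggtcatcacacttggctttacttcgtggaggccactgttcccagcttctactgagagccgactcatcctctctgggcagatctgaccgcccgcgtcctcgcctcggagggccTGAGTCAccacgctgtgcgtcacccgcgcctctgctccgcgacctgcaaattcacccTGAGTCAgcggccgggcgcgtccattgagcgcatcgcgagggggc
Slc7a11 had neither motif in its window but had the amino acid response type TGATGNAA on both strands, a motif found in 3.97% of windows and here written in capitals (chr3:50443643-50443689, minus strand).
Slc7a11 promoter: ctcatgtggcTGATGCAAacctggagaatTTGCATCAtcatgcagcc
A match describes the letters in these windows; binding was not measured.

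Hmox1 (ENSMUSG00000005413, chr8:75093621-75100589) encodes heme oxygenase 1, which splits heme into biliverdin, iron and carbon monoxide. In stromal cells its level was 25.1 CPM in the wild-type library (22 UMIs), 145 in Pdgfra-Cre (824 UMIs) and 266 in Pdgfrb-Cre (1612 UMIs). The Pdgfra-Cre level was thus 5.75-fold (3.77 to 9.23) and the Pdgfrb-Cre level 10.6-fold (6.96 to 16.9) that of wild type, and the 3 intervals of the levels did not overlap. Outside the stroma the libraries parted. Endothelial cells had 42.6, 68.4 and 315 CPM, a ratio of 1.60 (1.14 to 2.26) in Pdgfra-Cre and 7.39 (5.87 to 9.40) in Pdgfrb-Cre. Macrophages, which had the highest Hmox1 of the compared lineages in each library, stood at 228, 236 and 1014 CPM, a ratio of 1.03 (0.823 to 1.30) and 4.45 (3.75 to 5.33). The high level in Pdgfrb-Cre was therefore common to stroma, endothelium and macrophages, whereas in Pdgfra-Cre the macrophage level lay within counting error of wild type. Lymphocytes stayed near the floor: T or NK cells had 2.47, 4.74 and 4.33 CPM and B cells 3.67, 11.9 and 1.76 CPM, the middle B cell value resting on 2 UMIs.

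Because deeper cells show a gene more often, each cell was also thinned to 1000 UMIs. The share of stromal cells with at least 1 Hmox1 UMI was then 1.38% of 218 cells (0.285 to 3.97), 9.39% of 607 (7.19 to 12) and 17.1% of 566 (14.1 to 20.5), against 6.40%, 39.8% and 55.5% before thinning. Thinned macrophages gave 11.1%, 15.8% and 41.5%, and thinned endothelial cells 3.70%, 5.36% and 20.5%. In B cells, taken as a background, the thinned share was 1 of 605 cells, or 0.165%, in wild type and 0 of 941 in Pdgfrb-Cre, which allows up to 0.391%. Low expression in B cells cannot be told from free RNA here. The interval of the wild-type B cell share reaches 0.917%, and the 25 B cells of Pdgfra-Cre give no useful background. The macrophage and endothelial shares of all libraries and the stromal shares of both Cre libraries had intervals above 0.917%, whereas the wild-type stromal share, from 3 cells, cannot be told from this background. T or NK shares of 0.312%, 0.612% and 0.576% are at that background, and no Hmox1 expression is read from them.

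Thioredoxin reductase 1, encoded by Txnrd1 (ENSMUSG00000020250, chr10:82833951-82897712), returns electrons from NADPH to thioredoxin. Its stromal level was 34.3, 129.6 and 232 CPM, or 3.78-fold (2.63 to 5.65) and 6.75-fold (4.71 to 10.05) above wild type. Endothelial cells had 52.9, 163 and 178 CPM, with ratios of 3.09 (2.38 to 4.01) and 3.36 (2.70 to 4.23). In macrophages the levels were 67.1, 168 and 285 CPM, with ratios of 2.51 (1.75 to 3.66) and 4.25 (3.09 to 5.98). T or NK cells, in which Hmox1 was hardly seen and depth was alike, had 30.2, 62.7 and 72.0 CPM, or 2.07-fold (1.59 to 2.71) and 2.38-fold (1.95 to 2.94). B cells were the exception, at 23.6 CPM in wild type and 25.2 in Pdgfrb-Cre, a ratio of 1.07 (0.755 to 1.51). Summed over each lineage, Txnrd1 was thus higher than wild type in both Cre libraries in stromal, endothelial, macrophage and T or NK cells, the most comparisons of the 10 genes. The T or NK cells came from different clusters, however: 370 of 653 wild-type cells were in cluster 7, 210 of 329 Pdgfra-Cre cells in cluster 6 with 70 more in the NK cluster 16, and 7 NK markers summed to 186, 1824 and 287 CPM. Within cluster 6 the Txnrd1 ratios were 1.21 (0.714 to 2.15) and 2.11 (1.32 to 3.60), and within cluster 16 they were 0.914 (0.498 to 1.69) and 1.90 (1.14 to 3.25). Within clusters 6 and 16 the Pdgfra-Cre difference therefore did not exceed counting error, while that of Pdgfrb-Cre did; cluster 8 held 1 wild-type UMI, with a Pdgfra-Cre ratio of 8.32 (1.01 to 383).

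The substrates of the thioredoxin system moved less. Txn1 (ENSMUSG00000028367, chr4:57943373-57956411), thioredoxin itself, had 646, 1000.5 and 898 CPM in stromal cells, ratios of 1.55 (1.42 to 1.69) and 1.39 (1.28 to 1.52). In macrophages it was lower in the Cre libraries, at 725, 522 and 493 CPM, ratios of 0.720 (0.627 to 0.827) and 0.680 (0.607 to 0.762). Its direction therefore differed between lineages of the same library. Prdx1 (ENSMUSG00000028691, chr4:116685544-116700822), a peroxiredoxin that reduces hydrogen peroxide, had stromal levels of 450.1, 641 and 446 CPM. Summed over a lineage, its ratios ran from 0.904 in Pdgfra-Cre macrophages to 1.42 in Pdgfra-Cre stromal cells. The macrophage value joined clusters that went opposite ways, as given below. Srxn1 (ENSMUSG00000032802, chr2:152105516-152111376), the sulfiredoxin that restores overoxidised peroxiredoxins, had 24, 31.8 and 52.6 CPM in stromal cells and 24.6, 32.3 and 55.8 CPM in macrophages. The Pdgfrb-Cre ratios were 2.19 (1.41 to 3.59) and 2.27 (1.32 to 4.20), while the intervals of both Pdgfra-Cre ratios, 1.32 (0.840 to 2.19) and 1.32 (0.662 to 2.70), include 1. Endothelial Srxn1 was 6.16, 17.6 and 12.4 CPM, resting on 12, 16 and 25 UMIs.

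Glutamate-cysteine ligase, the rate-limiting enzyme of glutathione synthesis, is a pair of subunits whose genes moved together in some cells only. Gclc (ENSMUSG00000032350, chr9:77754535-77794485), the catalytic subunit, had 19.4, 47.7 and 98.1 CPM in stromal cells, or 2.46-fold (1.51 to 4.28) and 5.05-fold (3.13 to 8.73). Macrophage Gclc was 18, 45.8 and 71.0 CPM, or 2.54-fold (1.26 to 5.56) and 3.94-fold (2.14 to 8.08). Endothelial cells had 30.3, 40.8 and 59.3 CPM, with ratios of 1.35 (0.868 to 2.07) and 1.96 (1.42 to 2.72). Gclc was also the one gene of the set at 1.5-fold in B cells, with 17.9 CPM in wild type and 32.5 in Pdgfrb-Cre, a ratio of 1.81 (1.27 to 2.63). These B cells came from different clusters, however: 593 of 614 wild-type cells were in cluster 2 and 941 of 952 Pdgfrb-Cre cells in cluster 4. Within cluster 4 the Gclc ratio was 2.14 (0.376 to 85.2) against 1 wild-type UMI, so a difference within a cluster cannot be read. T or NK cells had 19.5, 32.6 and 36.2 CPM, ratios of 1.67 (1.17 to 2.39) and 1.86 (1.44 to 2.42). Gclm (ENSMUSG00000028124, chr3:122245557-122270732), the modifier subunit, was higher in stromal cells, at 33.1, 56.8 and 63.2 CPM with ratios of 1.72 (1.17 to 2.6) and 1.91 (1.31 to 2.88). Elsewhere its ratios ran from 0.757 in Pdgfrb-Cre T or NK cells to 1.39 in Pdgfrb-Cre macrophages, and endothelial cells had 70.3, 76.1 and 74.1 CPM. Summed over a lineage, the higher Gclc outside the stroma was thus not matched by Gclm, although the resident macrophage cluster 18 had more of both.

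Slc7a11 (ENSMUSG00000027737, chr3:49892526-50443614) encodes the cystine-glutamate exchanger xCT, and its pattern was of myeloid cells. Macrophages had 24.6 CPM in wild type (15 UMIs), 210.0 in Pdgfra-Cre (156 UMIs) and 349 in Pdgfrb-Cre (687 UMIs), ratios of 8.55 (5.03 to 15.6) and 14.2 (8.54 to 25.5). After thinning, 0 of 117 wild-type macrophages, 12.6% of 95 and 27.8% of 176 had a UMI, the count of 0 allowing up to 3.1%. In stromal cells Slc7a11 was at 0 in the wild-type and Pdgfra-Cre libraries, where 3 UMIs would be 3.43 and 0.526 CPM, and at 7.92 CPM in Pdgfrb-Cre, at least 2.31-fold the wild-type limit. That level came from 48 UMIs in 2.99% of the cells. Endothelial cells had 3.59, 6.62 and 21.7 CPM, and no UMI was seen in T or NK cells of any library. Here the higher level in the Cre libraries was seen chiefly in cells that are not stromal.

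Nqo1 (ENSMUSG00000003849, chr8:107388225-107403206), the quinone reductase often used as a marker of NRF2 activity, was nearly absent, with 4, 33 and 10 UMIs in stromal cells, or 4.57, 5.79 and 1.65 CPM. Endothelial cells had the highest levels of the compared lineages, 20.02, 37.5 and 11.4 CPM, and the Cre libraries lay on either side of wild type with ratios of 1.87 (1.15 to 3.04) and 0.568 (0.324 to 0.975). In thinned cells the Pdgfra-Cre log2 ratio was -0.25, so its direction did not hold. The Pdgfrb-Cre value joined clusters that went opposite ways. Its ratio was 0.369 (0.111 to 0.968) in endothelial cluster 5 and 0.771 (0.282 to 2.14) in cluster 9. In cluster 3 it was 6.12 (1.22 to 59.1) against 2 wild-type UMIs. Cluster 5 held 28 of the 39 wild-type UMIs, with 175 of 523 wild-type but 25 of 195 Pdgfrb-Cre cells. Sod2 (ENSMUSG00000006818, chr17:13006846-13040063), the mitochondrial superoxide dismutase, had 75.4, 85.1 and 142 CPM in stromal cells, with ratios of 1.13 (0.871 to 1.48) and 1.89 (1.47 to 2.47). Its macrophage levels were 109.7, 179 and 155 CPM, with ratios of 1.63 (1.21 to 2.22) and 1.41 (1.08 to 1.87), and endothelial levels were 78.5, 97.0 and 85.5 CPM.

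**Figure D1:**
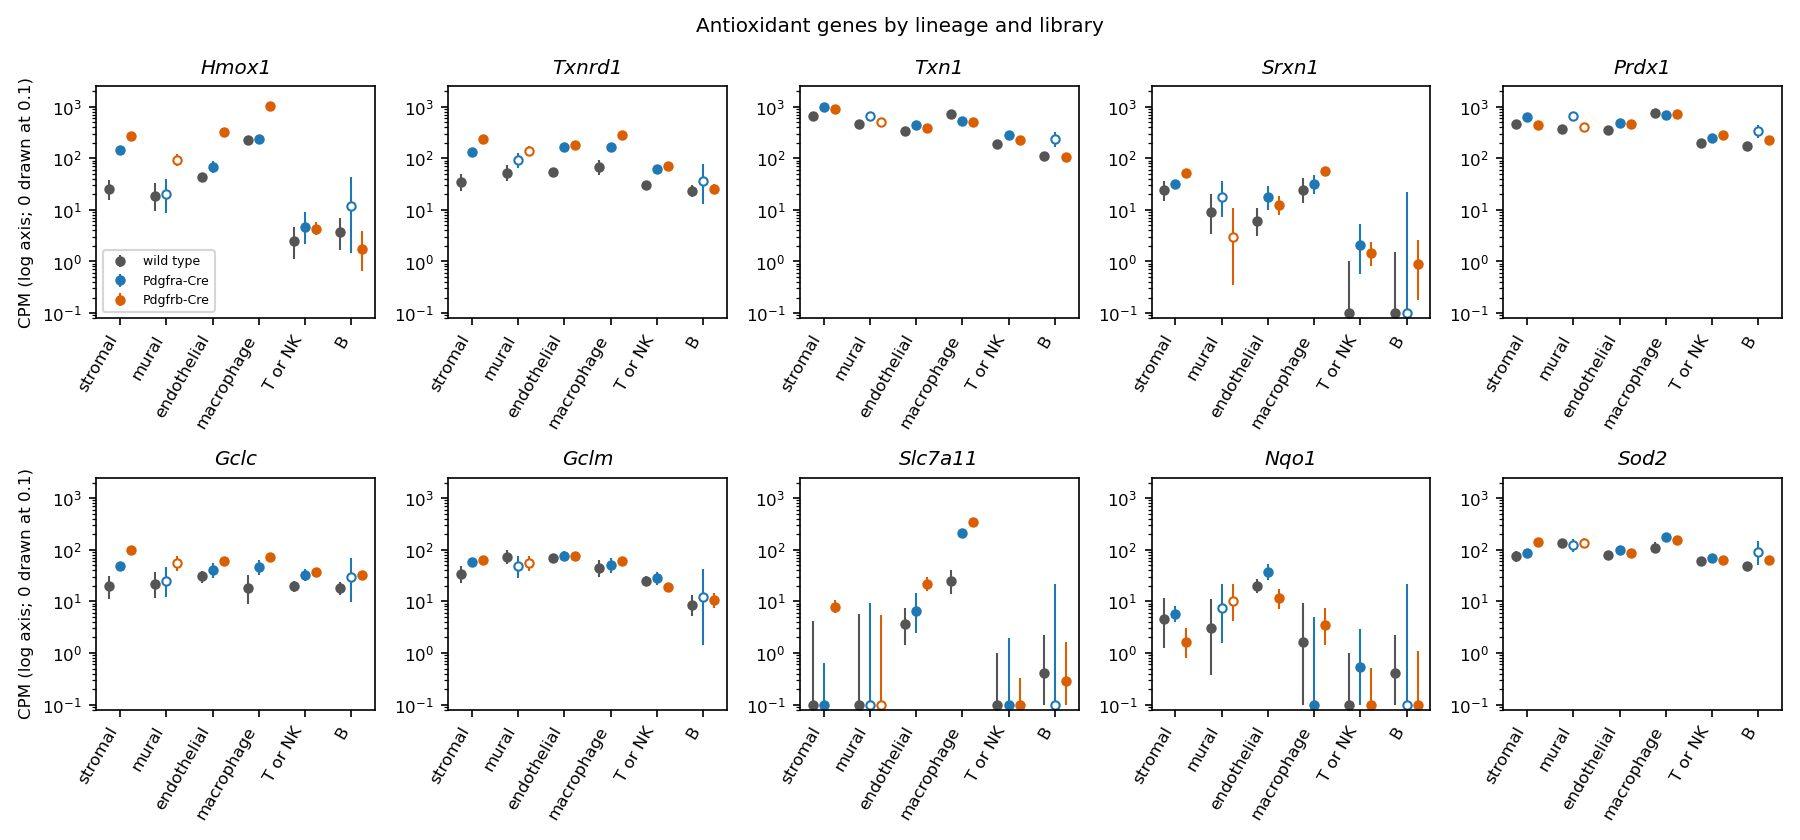
Level of each of the 10 genes (CPM on a log axis, 0 drawn at 0.1) by lineage in the wild-type, Pdgfra-Cre and Pdgfrb-Cre libraries; bars are exact 95% Poisson intervals and open symbols mark fewer than 50 cells. Txnrd1 is higher in both Cre libraries in stromal, endothelial, macrophage and T or NK cells. Hmox1 in macrophages is high in Pdgfrb-Cre (1014 CPM), and Slc7a11 is seen chiefly in macrophages.

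To ask how far the higher levels were shared beyond the stroma, a gene was counted as higher when the ratio of CPM, with 10 CPM added to both sides, reached 1.5, and when it passed a filter of 10 CPM in either library and 10 UMIs in all. The 9 comparisons of a lineage with wild type gave 90 values, of which 71 passed the filter, 31 were higher and 0 lower; all 9 use the same wild-type library, so they are not independent. In stromal cells 5 of the 10 genes (8 passed the filter) were higher in Pdgfra-Cre, where 16.4% of all tested genes were higher and 13.9% lower, and 6 (8 passed) in Pdgfrb-Cre, against 12.8% higher and 16.4% lower. In endothelial cells 3 genes (9 passed) were higher in Pdgfra-Cre, against 8.05% higher and 8.46% lower, and 4 (10 passed) in Pdgfrb-Cre, against 10.7% and 8.73%. In macrophages 4 genes (9 passed) were higher in Pdgfra-Cre, against 15.2% higher and 19.2% lower, and 5 (9 passed) in Pdgfrb-Cre, against 15.4% and 17.4%. Endothelial Srxn1 in Pdgfra-Cre and Slc7a11 in Pdgfrb-Cre passed the filter only through the library in which they are high, and without them 2 and 3 endothelial genes were higher. In T or NK cells, where 6 genes passed, Txnrd1 alone was higher in Pdgfra-Cre, against 16.0% higher and 5.68% lower, and Txnrd1 and Gclc in Pdgfrb-Cre, against 12.5% and 16.6%. In B cells of Pdgfrb-Cre, where 6 passed, Gclc alone was higher, against 14.5% and 14.3%. Over all 10 genes, the counts in stromal cells and macrophages lay farther above the background than those in lymphocytes, where 1 or 2 genes are no result about the set. The 10 genes and the lists below were chosen with earlier results of these data known, so a count above the background is no test of them. Medians of the log2 ratio over the 10 genes were 0.56 and 0.84 in stromal cells, 0.39 and 0.44 in endothelial cells, 0.22 and 0.69 in macrophages, 0.26 and 0.20 in T or NK cells and 0.09 in B cells. Over all tested genes they were 0.02 and -0.10, -0.04 and -0.04, -0.04 and -0.05, 0.16 and -0.08, and -0.02. By median-of-ratios size factors the typical gene lay at a log2 ratio of -0.03 and -0.17 in stromal cells, -0.03 and -0.13 in macrophages and 0.22 and -0.23 in T or NK cells. Scaling by them moved the log2 ratios of the 10 genes the opposite way by about as much or less, and all 31 values still reached 1.5-fold. The Pdgfra-Cre counts were the least stable: in stromal cells 3 genes were higher without mitochondrial and ribosomal protein genes in the total, and in macrophages between 2 (doublets kept) and 8 (a mean over cells). With doublets kept, only 58 wild-type and 59 Pdgfra-Cre cells were named macrophages.

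Gene by gene, the count of comparisons with a higher level was 8 of 9 for Txnrd1, 7 for Gclc, 4 for Hmox1, 3 each for Srxn1 and Slc7a11, 2 each for Gclm and Sod2, 1 each for Txn1 and Nqo1, and 0 for Prdx1. Txnrd1 and Gclc were shared by stromal and other cells, Gclm summed over a lineage reached 1.5-fold in stromal cells alone, and Slc7a11 did in macrophages and in endothelial cells of Pdgfrb-Cre. In Pdgfrb-Cre stroma Slc7a11 had a log2 ratio of 0.84 but stayed under the filter of 10 CPM. Hmox1 had a log2 ratio in Pdgfra-Cre of 2.14 in stromal cells, against 0.57 in endothelial cells and 0.05 in macrophages. In Pdgfrb-Cre the 3 log2 ratios were 2.97, 2.63 and 2.11.

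**Figure D2:**
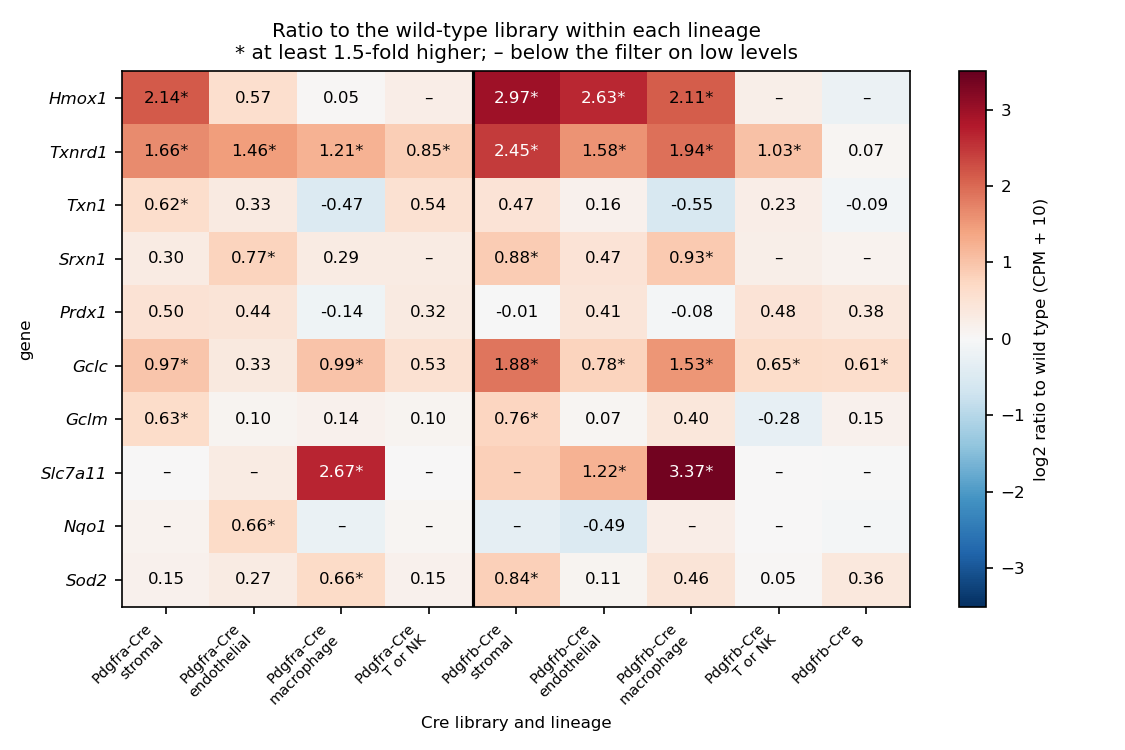
Log2 ratio to the wild-type library, with 10 CPM added, for each gene (vertical axis) in each lineage of each Cre library (horizontal axis); a star marks at least 1.5-fold higher and a dash marks a gene below the filter on low levels. Txnrd1 carries a star in every column but B cells, and Slc7a11 has the highest value of all, 3.37 in Pdgfrb-Cre macrophages.

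Set against each other, the Cre libraries differed in the size of the difference from wild type. In stromal cells 4 genes were at least 1.5-fold higher in Pdgfrb-Cre than in Pdgfra-Cre, where 11.5% of tested genes were: Gclc at 2.06-fold (1.78 to 2.38), Hmox1 at 1.84-fold (1.69 to 2.002), Txnrd1 at 1.79-fold (1.63 to 1.95) and Sod2 at 1.67-fold (1.5 to 1.88). In macrophages 4 genes were higher as well, against 12.3% of tested genes higher and 9.65% lower, led by Hmox1 at 4.30-fold (3.69 to 5.05). In endothelial cells Hmox1 (4.61-fold, 3.54 to 6.08) and Slc7a11 (3.29-fold, 1.40 to 9.44) were higher, against 7.33% of tested genes. Slc7a11, however, passed the filter only through Pdgfrb-Cre, at 21.7 CPM (44 UMIs) against 6.62 CPM (6 UMIs) in Pdgfra-Cre. Endothelial Nqo1 was lower at a ratio of 0.303 (0.171 to 0.530), against 5.66% of tested genes lower. In T or NK cells 0 of the 10 genes differed by 1.5-fold, where 4.12% of tested genes were higher in Pdgfrb-Cre and 18.8% lower.

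Different cell states made up the stroma of each library, so levels were also compared within single clusters. Most wild-type stromal cells (182) fell in cluster 1, led by Col1a1 and Postn, most Pdgfra-Cre cells (568) in cluster 20, led by Sult1e1 and Inmt, and most Pdgfrb-Cre cells (340) in cluster 27, led by Has1 and Dmkn. Cluster 17, led by Mmp3 and Cxcl14, was the one stromal cluster with at least 20 cells of each library, with 35, 23 and 202. Within it Hmox1 was at 17, 78.1 and 313 CPM, the wild-type value resting on 3 UMIs, for ratios of 4.60 (1.30 to 24.8) and 18.4 (6.28 to 89.7). Txnrd1 in this cluster was at 28.3, 135 and 246 CPM, with ratios of 4.78 (1.81 to 15.9) and 8.69 (3.69 to 26.9). Gclc, however, was at 45.3, 31.2 and 101 CPM, so that its Pdgfra-Cre ratio of 0.690 (0.197 to 2.27) did not share the direction of the whole stroma. In cluster 1 the 20 Pdgfrb-Cre cells had a Hmox1 level of 13.9 CPM from 2 UMIs, against 30.003 in wild type, a ratio of 0.463 (0.0521 to 1.93), and a Txnrd1 level of 69.4 CPM against 23.3, a ratio of 2.98 (1.18 to 7.20). A higher Hmox1 was thus not detectable in cluster 1 at this depth, while Txnrd1 was higher there.

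Among macrophages, cluster 18 (led by Retnla, C1qa and Pf4, with Mrc1 and Folr2, a resident type) and cluster 15 (led by Lyz2 and Cd14, with Il1b) were filled by all libraries. In cluster 18 Hmox1 was at 273, 502 and 2236 CPM, ratios of 1.84 (1.30 to 2.6) and 8.19 (6.40 to 10.6). In cluster 15 it was at 197, 171 and 452 CPM, ratios of 0.866 (0.634 to 1.19) and 2.3 (1.80 to 2.97). The Pdgfra-Cre ratio of 1.03 over all macrophages thus joined a higher level in the resident type with one near wild type in the other. Slc7a11 in cluster 15 was at 41.1, 236 and 439.8 CPM, and in cluster 18 at 0, 103 and 149.9 CPM, at least 8.44-fold and 12.3-fold the wild-type limit. Cluster 18 also had more Gclm, at 16.3, 89.5 and 70.9 CPM, ratios of 5.49 (1.70 to 23.1) and 4.35 (1.58 to 16.7) against a wild-type level of 4 UMIs, and its Gclc ratios were 5.63 (1.45 to 31.8) and 8.83 (2.89 to 43.9). Srxn1 there was at 4.08, 117 and 103 CPM, ratios of 28.7 (4.50 to 1199) and 25.3 (4.38 to 1015) against 1 wild-type UMI. In cluster 15 Gclm had ratios of 0.638 (0.345 to 1.18) and 0.905 (0.562 to 1.51), and Srxn1 of 0.306 (0.104 to 0.809) and 0.889 (0.480 to 1.75). Prdx1 had ratios of 2.27 (1.85 to 2.78) and 1.38 (1.16 to 1.65) in cluster 18. In cluster 15 its ratios were 0.584 (0.493 to 0.691) and 0.757 (0.661 to 0.869). The macrophage values of Gclm, Srxn1 and Prdx1 summed over both clusters thus joined higher levels in the resident type with equal or lower ones in the other. Among endothelial clusters Hmox1 in Pdgfrb-Cre was 3.28-fold (1.68 to 6.69) in cluster 3, led by the arterial genes Sema3g and Gja4, 12.2-fold (6.75 to 24) in cluster 5, led by the venule gene Selp, and 6.57-fold (4.98 to 8.81) in the capillary-gene cluster 9. Over all clusters with at least 20 cells of both libraries, the Txnrd1 ratio was above 1 in 9 of 10 for Pdgfra-Cre and 12 of 13 for Pdgfrb-Cre, and the Gclc ratio in 9 of 10 and 13 of 13. The counting interval lay wholly above 1 in 7 and 12 of these clusters for Txnrd1, but in 1 and 7 for Gclc.

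**Figure D3:**
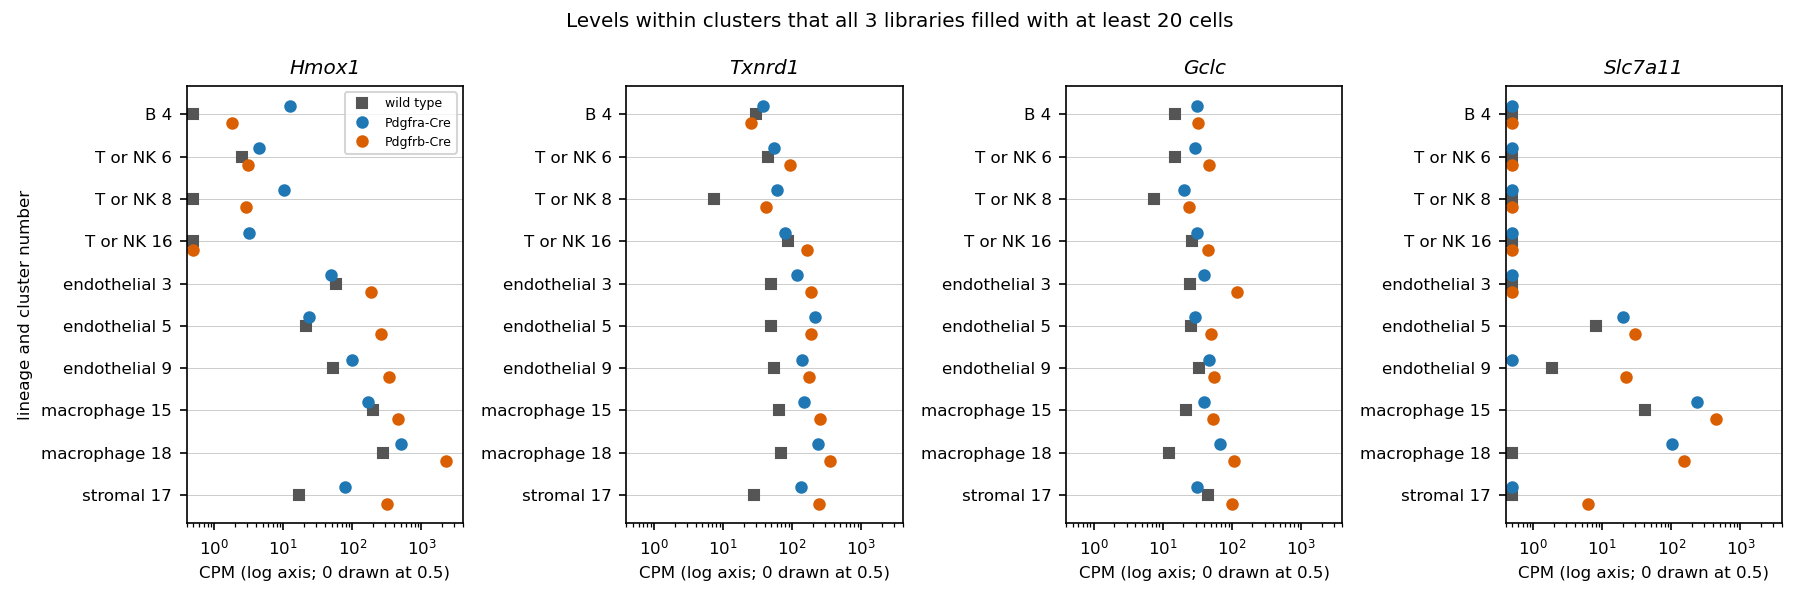
Level in CPM (log axis, 0 drawn at 0.5) of Hmox1, Txnrd1, Gclc and Slc7a11 within each cluster that held at least 20 cells of every library; squares are wild type and circles the Cre libraries. In macrophage cluster 18 Hmox1 goes from 273 CPM in wild type to 2236 CPM in Pdgfrb-Cre, and in stromal cluster 17 Gclc of Pdgfra-Cre lies below wild type.

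RNA of other cell types moved with some of these groups. Summed levels of 9 macrophage markers in stromal cells were 40.0, 30.7 and 18.5 CPM, with 5, 9 and 8 of them seen and C1qc, Adgre1, Fcgr3 and Ms4a7 at 0 in wild type. The macrophages themselves held 19122, 15028 and 10929 CPM, and the part of macrophage RNA in the stromal levels was not tested. In endothelial cells the same list stood at 103, 139 and 136 CPM. Summed levels of 8 T cell markers in stromal cells were 233, 7.89 and 21.8 CPM, so the wild-type stroma carried the most T cell RNA. Erythroid markers, chiefly hemoglobins, were at 16, 2615 and 1.48 CPM in stromal cells, 348, 17796 and 0.988 CPM in endothelial cells and 42.8, 9739 and 1.17 CPM in T or NK cells, with 5 of 5 seen in Pdgfra-Cre in each. In macrophages they were at 105, 159 and 7.10 CPM. The part of hemoglobin RNA in the Pdgfra-Cre levels was not tested. Pdgfrb-Cre macrophages carried 1376 CPM of 6 epithelial markers, against 31.1 in wild type and 241 in Pdgfra-Cre. In the 94.4%, 90.5% and 94.4% of macrophages with no UMI of the 13 epithelial and mesothelial markers, Hmox1 was at 247, 269 and 1185 CPM and Slc7a11 at 26.9, 202 and 401 CPM, with Pdgfrb-Cre ratios of 4.79 (4.03 to 5.74) and 14.9 (8.98 to 26.8). Both Pdgfrb-Cre ratios were as large without the cells that carried epithelial or mesothelial RNA.

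Cells with UMIs of several of the genes were more frequent in the stroma and macrophages of the Cre libraries. In thinned stromal cells 3.21%, 13.7% and 16.8% had UMIs of at least 3 of the 10 genes, and in thinned macrophages 5.98%, 24.2% and 32.4% did. Endothelial shares were 3.23%, 3.57% and 7.89%, T or NK shares 0.780%, 1.83% and 1.61%, and B cell shares 0.496% in wild type and 0.531% in Pdgfrb-Cre, so Pdgfra-Cre endothelium and the B cells stood close to wild type. In Pdgfrb-Cre stroma the 97 thinned cells with a Hmox1 UMI had 0.320 Txnrd1 UMIs and 0.113 Gclm UMIs per cell, against 0.190 and 0.0490 in the 469 cells without. Sod2 did not share this, with 0.124 against 0.134 UMIs per cell, and Slc7a11 had 0 against 0.00426. Pdgfrb-Cre macrophages with Hmox1 (73 cells) had 0.699 Slc7a11 UMIs and 0.123 Srxn1 UMIs per cell, against 0.320 and 0.0194 in 103 cells without. Pdgfrb-Cre endothelial cells differed for Txnrd1, with 0.103 UMIs per cell in 39 cells with Hmox1 and 0.152 in 151 without. Their Gclm went the same way as in stroma, with 0.154 against 0.0662 UMIs per cell. These values describe cells within 1 library.

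The regulators of the pathway were read from a list of 8 genes. In stromal cells 5 of 8 were at least 1.5-fold higher in Pdgfra-Cre and 4 of 8 in Pdgfrb-Cre, with 0 lower, against 16.4% and 12.8% of all tested genes higher. Nfe2l2, which encodes NRF2, was at 161, 173 and 238 CPM in stroma, ratios of 1.07 (0.897 to 1.29) and 1.48 (1.24 to 1.77), below the threshold. In macrophages it was higher in Pdgfra-Cre, with ratios of 2.12 (1.70 to 2.66) and 1.25 (1.01 to 1.55). Keap1, its inhibitor, was at 33.1, 43.0 and 28.4 CPM in stroma and at 55.7, 29.6 and 26.9 CPM in macrophages, where it was lower in both Cre libraries with ratios of 0.532 (0.296 to 0.936) and 0.483 (0.308 to 0.766). The small MAF genes, whose proteins pair with NRF2 or BACH1, differed more: stromal Maff was at 26.3, 81.9 and 184 CPM and Mafk at 16, 83.9 and 120.4 CPM. Maff was at least 1.5-fold higher in all 9 comparisons. Bach1, the repressor of Hmox1, was higher too, at 37.7, 72.1 and 157 CPM in stroma, 35.4, 82.7 and 121 CPM in endothelium and 81.9, 299 and 322 CPM in macrophages. In stromal cells the transcripts of the activator thus differed less from wild type than those of Maff, Mafk and Bach1. That order did not hold everywhere, since Mafk in Pdgfra-Cre endothelium had a ratio of 0.966 (0.696 to 1.33).

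Of 20 other NRF2 targets, 8 were higher and 1 lower in Pdgfra-Cre stroma and 6 higher and 1 lower in Pdgfrb-Cre stroma, where 16.4% and 12.8% of all tested genes were higher and 13.9% and 16.4% lower. Sqstm1, the autophagy adaptor p62 that also binds KEAP1, was higher in all 9 comparisons, from 1.63-fold (1.32 to 2.02) in Pdgfra-Cre endothelium to 4.27-fold (3.36 to 5.50) in Pdgfrb-Cre stroma. The highest in stroma were Gstm1 in Pdgfra-Cre, with a log2 ratio of 1.93, and Ugdh in Pdgfrb-Cre, with 2.11, and the lowest was Cbr1, at -0.74 and -0.71. In macrophages 9 and 6 of the 20 were higher (15.2% and 15.4% of all tested genes), among them glutathione reductase, Gsr, at 75.3, 271 and 158 CPM. In endothelial cells 3 and 3 of 20 were higher, against 8.05% and 10.7%, and in T or NK cells 4 and 3, against 16.0% and 12.5%, counts that are near the background. Of 14 antioxidant enzymes outside the NRF2 lists, 2 and 0 were higher in stroma and 0 and 2 lower, no more than the background. Gpx3, a secreted glutathione peroxidase, went opposite ways there, at 612, 2290 and 355 CPM; it is also a leading gene of the stromal cluster that Pdgfra-Cre fills. In macrophages 7 and 3 of these 14 were higher and 0 and 1 lower, where 15.2% and 15.4% of all tested genes were higher and 19.2% and 17.4% lower. The stromal and macrophage counts of this list were thus unlike in Pdgfra-Cre.

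Other stress lists differed from wild type in stroma and in other cells. All 14 immediate early genes in Pdgfra-Cre stroma and 11 of 14 in Pdgfrb-Cre stroma were higher, as were 6 and 8 of 8 NF-kB feedback genes, with median log2 ratios of 1.19 and 1.66, against 16.4% and 12.8% of all tested genes. NF-kB feedback genes higher in endothelium numbered 4 and 6, in macrophages 4 and 5 and in T or NK cells 2 and 7. Immediate early genes higher in these lineages numbered 9 and 9, 8 and 9, and 7 and 4. From 0 to 2 genes of a list were lower there. Of all tested genes, 8.05% and 10.7%, 15.2% and 15.4%, and 16.0% and 12.5% were higher. Of the 12 genes of the ATF4 programme, which includes regulation of Slc7a11, 7 and 8 passed the filter in stroma. There 4 and 5 were higher and 0 and 1 lower, against the same 16.4% and 12.8% of all tested genes higher. The median log2 ratios of the 12 were 0.39 and 0.08, and Atf4 was at 120.0, 420.0 and 552 CPM. Atf4 and Sqstm1 were at least 1.5-fold higher in every lineage compared. Of 11 heat shock genes, 5 and 5 were higher and 3 and 2 lower in stroma, so they had no common direction there. All tested genes were 16.4% and 12.8% higher and 13.9% and 16.4% lower. In macrophages 0 and 1 were higher and 6 and 5 lower, against 15.2% and 15.4% higher and 19.2% and 17.4% lower. Hspa5, the chaperone of the endoplasmic reticulum, was higher in stroma (log2 ratios of 1.69 and 1.80). Hspa1a, at 1204, 251 and 320.0 CPM in stroma, and its near-identical copy Hspa1b were lower in all 9 comparisons. Wild-type cells thus held more of the inducible Hsp70 transcripts, opposite to Hmox1, Txnrd1 and Gclc in stromal cells. The part of cell handling in these differences was not tested, and handling and genotype cannot be told apart with 1 library each.

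**Figure D4:**
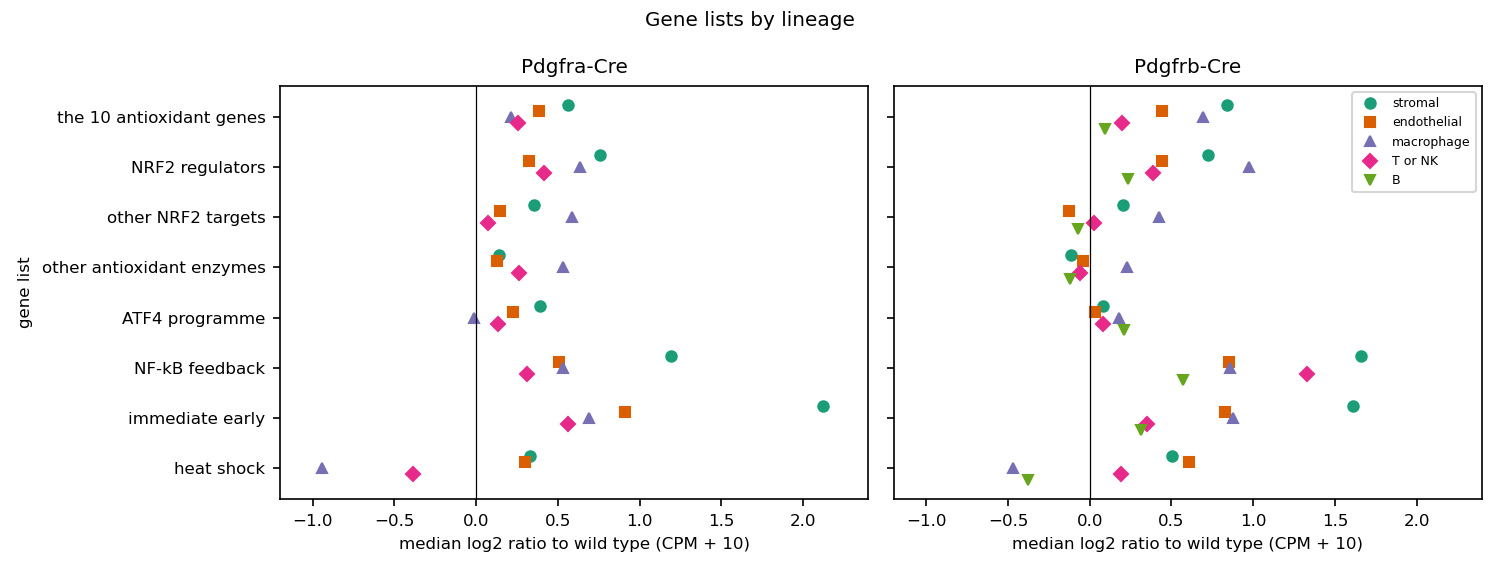
Median log2 ratio to wild type (horizontal axis, 10 CPM added) over all listed genes of each list, by lineage, for Pdgfra-Cre (left) and Pdgfrb-Cre (right). The 10 antioxidant genes lie at 0.56 and 0.84 in stromal cells, below the NF-kB feedback list at 1.19 and 1.66, and the other antioxidant enzymes at 0.14 and -0.11.

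Over 17 combinations of lineage and library with at least 50 cells, the mean z score of the 10 genes was highest in Pdgfrb-Cre macrophages (1.37), Pdgfrb-Cre stroma (0.98) and Pdgfra-Cre macrophages (0.90) and lowest in wild-type B cells (-1.36). The genes outside the lists whose log2 levels followed it most closely, of 6385 ranked, were Pcyt1a (Pearson r = 0.937), Rtn4 (0.922), Plin2 (0.911), Anxa5 (0.905), Map7d1 (0.895), Neat1 (0.891), Vcp (0.890) and Dirc2 (0.889). Pcyt1a makes phosphatidylcholine and Plin2 coats lipid droplets. These 17 points share 3 libraries and their depth, so the values are a description without a test. Of the 10 genes, Hmox1 (0.940), Txnrd1 (0.915) and Srxn1 (0.914) lay closest to their own mean, and Nqo1 (0.399) farthest.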

How the data were processed

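Single-cell RNA was measured in 3 libraries, 1 per genotype. The authors deposited unnormalised UMI counts for each gene and barcode, made with Cell Ranger 3.1.0 and STAR 2.6 on mm10, per the submitters' processing notes. Barcodes with 500 or more genes and no more than 15% mitochondrial UMIs were used, and the highest Scrublet scores (0.8% per 1000 barcodes) were removed as doublets, which left 2668, 1409 and 3903 cells. With scanpy 1.11.5 and numpy 2.4.6, 2000 variable genes (without the 10 genes and all listed genes), 30 principal components and 15 neighbours gave 28 Leiden clusters (resolution 1, libraries not integrated). Clusters were named from markers of 18 classes, so a cell type name means cells like that type by RNA, and T and NK clusters were joined. The class called macrophage also covers monocytes. Clusters left unused held 217, 43 and 151 cells.

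UMIs were summed per lineage and library and scaled to CPM. Intervals (scipy 1.17.1, at 95%) are exact Poisson for levels, conditional binomial for ratios and Clopper-Pearson for shares; they leave out spread between cells and animals. A lineage needed 50 cells in both libraries. A level at 0 was set to a limit of 3 counts in that library. Log2 ratios have 10 CPM added, which understates ratios of low genes. All 10 genes are given. By rule, the 2 highest and 2 lowest log2 ratios of each of 7 pathway lists (genes of at least 50 CPM), and the 8 genes most like the 10, could be named. Keap1, Gsr and the levels of list genes in lineages outside that rule, the macrophages without epithelial markers and the shared clusters were chosen after their values were seen. The 10 genes and the lists were chosen with earlier results of these data known. The intervals and the fold threshold were tested on simulated data. Gene coordinates are from GENCODE M21 on GRCm38.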

Additional observations from a re-analysis of the deposited data

Results flagged for a closer look

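Cell groups too small for the comparisons still showed some of the 10 genes above wild type, with intervals that did not overlap. Neutrophils, of which the libraries held 25, 7 and 17, had the highest Slc7a11 of any lineage, at 272 CPM in wild type, 2713 in Pdgfra-Cre and 2685 in Pdgfrb-Cre. Their Txn1 was 1284 CPM in wild type and 2580 in Pdgfra-Cre, and their Sod2 58.4 in wild type and 429.6 in Pdgfrb-Cre. In dendritic cells (90 in wild type, 23 in Pdgfrb-Cre) Slc7a11 was at 52.0 and 213 CPM, Txnrd1 at 52.0 and 191, and Gclc at 36.1 and 119.8.

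Mural cells, the contractile cells of vessel walls that use Pdgfrb, numbered 159, 33 and 45. In Pdgfrb-Cre they had 93.1 CPM of Hmox1 against 18.5 in wild type, 140.3 of Txnrd1 against 52.6 and 54.6 of Gclc against 21.6. In Pdgfra-Cre their Prdx1 was 667 CPM against 363 and their Txn1 662 against 462. The 25 B cells of Pdgfra-Cre had 333 CPM of Prdx1 against 173 and 232 of Txn1 against 112, and plasma cells of Pdgfrb-Cre (33, with 11 in wild type) had 374 CPM of Txn1 against 162. These groups have under 50 cells in at least 1 library, and the differences were not tested.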

How the results depend on the processing

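Of the 31 values at least 1.5-fold higher, between 24 and 31 reached that fold again under each alternative in which all could be computed, 24 with shared clusters at equal weight and 25 in cells thinned to 1000 UMIs. Stromal log2 ratios of Hmox1 ran from 1.71 to 2.48 in Pdgfra-Cre and 2.37 to 3.39 in Pdgfrb-Cre, and those of Txnrd1 from 1.46 to 1.92 and 2.23 to 2.72. Directions turned for Nqo1 in Pdgfra-Cre endothelium when thinned (-0.25) and, with shared clusters (an alternative chosen after seeing the data), for Gclc in Pdgfra-Cre stroma (-0.42) and Gclm in Pdgfrb-Cre stroma (-0.14). The number of genes higher in Pdgfra-Cre stroma was 3 without mitochondrial and ribosomal genes and 3 with shared clusters. In Pdgfra-Cre macrophages it was 8 as a mean over cells, 2 with doublets kept and 2 at Leiden resolution 2. In the last 2 settings the macrophages of wild type and Pdgfra-Cre fell from 126 and 105 to 58 and 59. A cluster with Plbd1 and Il1b among its leading genes, as in cluster 15, was then named neutrophil (doublets kept) or dendritic (resolution 2). Siglech led this cluster at resolution 2, and Cd209a, like Siglech a marker of the dendritic class, was among its leading genes. Cluster 15 held 141 of 156 Pdgfra-Cre and 594 of 687 Pdgfrb-Cre macrophage UMIs of Slc7a11. In Pdgfrb-Cre endothelium the number of genes higher was 2 when thinned. In Pdgfra-Cre T or NK cells it was 2 as a mean over cells, with 1 CPM added, with doublets kept, at resolution 2 and with shared clusters, 4 when thinned, and 0 without clusters mostly of 1 library. In Pdgfrb-Cre T or NK cells it was 1 when thinned, with the stricter cell filter and at resolution 2. In Pdgfrb-Cre B cells it was 0 as a mean over cells, with the stricter filter and at resolution 2, and 3 when thinned and with shared clusters. The cause of these shifts was not tested. Leaving out clusters mostly of 1 library gave no stromal or B cell value, since fewer than 50 wild-type cells remained. No paired analysis was possible because each genotype is 1 library, and no library could be left out. Wild-type stromal levels rest on 875264 UMIs, which limits ratios of low genes.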
